A study of Mus musculus with 5 samples.

Results

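Junction and adhesion genes that blood stem cells share with the endothelium were examined in 5 libraries of sorted mouse bone marrow. The set holds 10 genes of the 24399 in the table, and all 10 passed the filter on low counts that left 14565 genes for testing. Of the 10, Cldn5, Muc1 and Pdgfrb were chosen by their low values in the knockout-labelled libraries, and their difference between the groups is therefore described without a test. The other 7 (Esam, Cdh5, Tie1, Pecam1, Jam2, Jam3 and F11r) were chosen for their role.

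Messenger RNA came from LSK cells (lineage-negative, Sca1-positive, cKit-positive), the marrow fraction that contains stem cells and multipotent progenitors, of C57BL/6 mice aged 12 months. Of the libraries, 3 were titled KO and 2 WT. The study used a germ line knockout and lists wild-type, heterozygous and null animals. The KO titles stand beside a heterozygous genotype entry, and because titles and entry differ these 3 libraries are referred to as KO-labelled. No treatment was given. The labels do not tie the libraries to separate animals, and p-values therefore reflect the variation among these libraries, some of which may be technical.

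Endothelial cells are held together by tight junctions, built from claudins, and by adherens junctions, built in vessels around VE-cadherin. Junctional adhesion molecules and PECAM-1 are immunoglobulin-type receptors that sit beside these junctions and bind each other or leukocyte integrins across them. Blood stem cells arise from endothelium in the embryo and keep several of these surface proteins, of which ESAM and JAM proteins are used as stem cell markers in mouse marrow.

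Promoter sequence from the RefSeq promoter table of GRCm38.p6 was examined for Cldn5, Muc1, Tie1 and F11r. Stretches on the chromosome of Pdgfrb were left out beforehand, so its absence here does not mean that it is not listed. The 250 bases before the annotated start of Cldn5 and Muc1, the members with the largest difference between the groups, are shown 5′ to 3′ on the strand of the gene. Capitals mark every match, on either strand, to 6 motifs. These were the ETS-type letters GGAAG, the GATA-type letters GATAA and the E-box letters CACCTG, together with the GC box spelled GGGCGG, the TATA box spelled TATAAA and the CCAAT box by its own letters. No matches overlapped in the stretches shown. The Cldn5 stretch lies at chr16:18776597-18776846 and that of Muc1 at chr3:89228806-89229055, both on the plus strand.
Cldn5: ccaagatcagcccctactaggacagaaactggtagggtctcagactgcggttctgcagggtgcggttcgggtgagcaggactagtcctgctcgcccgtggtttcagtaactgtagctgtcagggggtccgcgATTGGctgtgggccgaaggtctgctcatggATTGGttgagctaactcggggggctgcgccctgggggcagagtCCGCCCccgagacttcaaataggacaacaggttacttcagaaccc
Muc1: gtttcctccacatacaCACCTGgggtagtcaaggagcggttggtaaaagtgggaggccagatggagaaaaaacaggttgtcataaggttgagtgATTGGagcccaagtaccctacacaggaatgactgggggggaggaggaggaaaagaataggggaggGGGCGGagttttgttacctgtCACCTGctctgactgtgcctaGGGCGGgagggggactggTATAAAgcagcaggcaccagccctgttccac

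The Cldn5 stretch held 2 matches to the CCAAT box, both on the opposite strand, and 1 to the GC box. The Muc1 stretch held 2 E-box matches, 2 GC box matches, 1 CCAAT box and 1 TATA box, whose letters spanned bases 31 to 26 before the start. Neither held the ETS-type or GATA-type letters. In the corresponding 250 bases, Tie1 held 6 ETS-type matches and no other motif, and F11r held 1 ETS-type, 1 E-box, 1 GC box and 3 CCAAT box matches. Among 32851 promoter stretches of the same length, 64.1% held the ETS-type letters, 22.6% the GATA-type, 17.2% the E-box, 32.7% the GC box, 12.4% the TATA box and 33.8% the CCAAT box. CCAAT and GC box letters were thus present in both stretches, as they were in that of F11r, and a match describes letters only.

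Levels are given in CPM (read counts scaled to a common library size, from TMM-scaled library totals). Library totals, with 1 transcript row per gene, ran from 29964556 to 39691066 counts, so that 3 counts, taken as the detection floor, equalled 0.076 to 0.1 CPM. The sorting markers Kit (1086 to 1227 CPM) and Ly6a, which encodes Sca1 (74.9 to 104.5 CPM), were present in every library. Fold changes compare KO-labelled with WT libraries and carry an approximate standard error (SE). It is the absolute log2 fold change divided by the square root of the F statistic from edgeR's quasi-likelihood fit. Adjusted p-values are over all 14565 genes. In this fit 1.97% of genes passed the threshold of 0.05, 1.18% lower and 0.79% higher in the KO-labelled libraries.

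Cldn5 encodes claudin-5, the main claudin of endothelial tight junctions. It stood at 2.35, 1.84 and 1.42 CPM in KO-labelled libraries 1 to 3 and at 10.9 and 10.1 CPM in WT libraries 1 and 2. All 3 KO-labelled libraries lay far below both WT libraries, and the group means were 1.87 ± 0.468 (SD, n = 3) and 10.5 ± 0.608 CPM (SD, n = 2). The fitted level was 5.61-fold lower in the KO-labelled libraries (log2 fold change -2.49 ± 0.308 SE), on 56 to 85 counts against 328 and 394 counts per library. The log2 fold change lay between -2.69 and -2.32 under the 11 alternative settings.

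Muc1, a transmembrane mucin of epithelial surfaces that some blood progenitors also carry, showed the same arrangement. Its levels were 2.44, 1.87 and 2.79 CPM in KO-labelled libraries 1 to 3 and 13.2 and 15.04 CPM in the WT libraries. The groups were again widely separated, at means of 2.36 ± 0.463 (SD, n = 3) and 14.1 ± 1.32 CPM (SD, n = 2). The fitted difference was 5.97-fold (log2 fold change -2.58 ± 0.267 SE), with a range of -2.72 to -2.43 under the 11 alternatives.

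Pdgfrb encodes the beta receptor for platelet-derived growth factor, best known from pericytes and other perivascular cells. It stood at 54.6, 83.1 and 56.2 CPM in the KO-labelled and 118 and 105 CPM in the WT libraries. The groups did not overlap, but KO-labelled library 2 lay nearer to the WT libraries than the other two did. The fitted difference was 1.72-fold (log2 fold change -0.79 ± 0.164 SE), and its log2 value ranged from -1.01 to -0.68 under the alternatives.

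The measured genes beside these 3 in the genome had smaller differences between the groups than Cldn5 and Muc1, while Csf1r lay near Pdgfrb. As the 3 were picked for their fall, smaller differences beside them were largely set by that choice. Within 30000 bases of Cldn5 the measured neighbour was Cdc45, a replication factor, at 65.1 to 75.5 CPM in KO-labelled and 53.6 and 57.5 CPM in WT libraries (adjusted p = 0.189 by edgeR). Around Muc1, Trim46 stood at 9.06 to 9.97 against 9.11 and 9.52 CPM and Krtcap2 at 60.9 to 73.0 against 56.6 and 70.3 CPM, the groups overlapping for both. Mtx1, also near Muc1, was lower without overlap, at 31.76 to 40.25 against 43.59 and 43.08 CPM. Its log2 fold change of -0.27 ± 0.131 did not pass (adjusted p = 0.391 by edgeR). Dpm3 overlapped, at 7.39 to 13.43 against 12.37 and 17.8 CPM (log2 fold change -0.44 ± 0.263). Csf1r, the macrophage growth factor receptor gene that neighbours Pdgfrb, stood at 23.7, 33.9 and 33.1 CPM in the KO-labelled and at 51.7 and 43.1 CPM in the WT libraries. Its log2 fold change of -0.65 ± 0.162 did not pass the threshold (adjusted p = 0.0674). None of the 3 genes overlaps another gene of the RefSeq table, which was used for gene order only. Cdh5, Jam2 and Jam3 each overlap 1 predicted gene model there, so their counts are less certain in that respect.

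**Figure D1:**
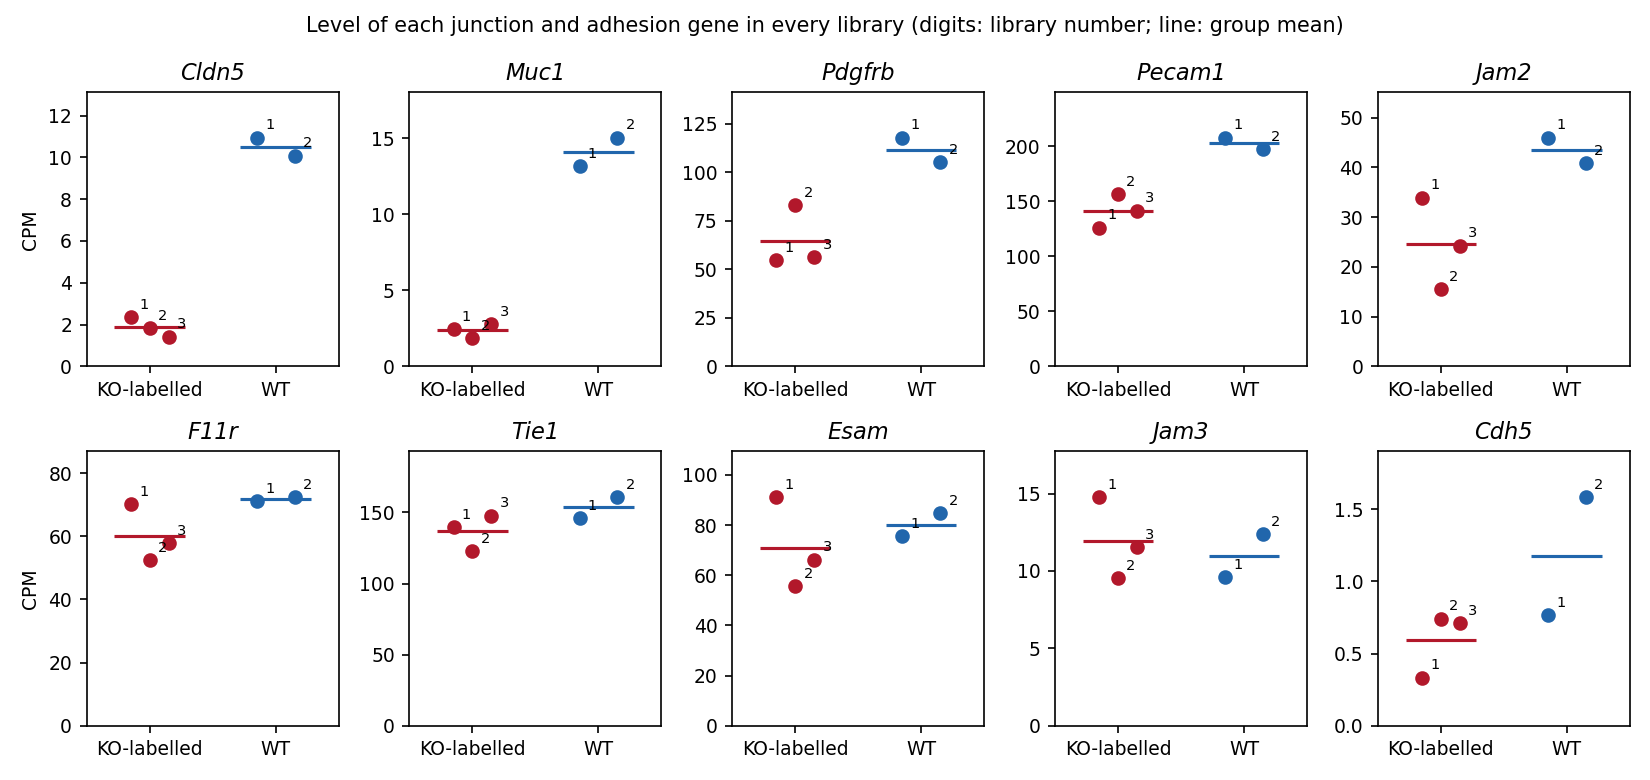
Level in CPM (vertical axis, from 0, scaled per gene) of the 10 genes in each KO-labelled (red, n = 3) and WT (blue, n = 2) library, with the library number beside each point and the group mean as a line. Cldn5 and Muc1 lie at 1.42 to 2.79 CPM in the KO-labelled and 10.1 to 15.04 CPM in the WT libraries, while the groups overlap for Tie1, Esam and Jam3.

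Among the 7 genes chosen for their role, Pecam1 passed the test, with a lower level in the KO-labelled libraries. That is 1 of 7, against 1.18% of all tested genes called lower. The KO-labelled and WT libraries did not overlap, with the KO-labelled ones lower, for 4 of the 7 (Pecam1, Jam2, F11r and Cdh5), against 16.3% of all tested genes. The gap was narrow for F11r (70.2 against 71.2 CPM) and for Cdh5 (0.742 against 0.767 CPM). Unscaled counts of Cdh5 overlapped, at 29 and 28 in KO-labelled libraries 2 and 3 and 23 in WT library 1. The median log2 fold change of the 7 was -0.26, beside 0.001 over all tested genes. Because the members were chosen with earlier results of these data known, these counts describe the genes and are not independent support.

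Pecam1 encodes PECAM-1 (CD31), a homophilic receptor at endothelial cell contacts that stem cells, platelets and leukocytes also carry. Its levels were 126, 156 and 141 CPM in KO-labelled libraries 1 to 3 and 207.5 and 197 CPM in the WT libraries. The lowest WT library lay above the highest KO-labelled one, and the gene fell 1.43-fold (log2 fold change -0.52 ± 0.0986 SE, adjusted p = 0.0167 by edgeR's quasi-likelihood test). The 4 transcript rows of Pecam1 carried nearly the same reads, the lowest holding 93.1% of the highest. The call was lost without KO-labelled library 3 (adjusted p = 0.0929), without WT library 1 (0.374), without WT library 2 (0.212) and in the replicate block fit (0.054), each in edgeR's test, while the log2 fold change stayed between -0.60 and -0.44 whichever library was left out.

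The junctional adhesion molecules differed among themselves. Jam2 encodes JAM-B, a ligand of JAM-C and of integrin alpha-4 beta-1, and stood at 33.9, 15.6 and 24.3 CPM in the KO-labelled and 46.0 and 40.8 CPM in the WT libraries. The KO-labelled values were all below the WT values but spread more than 2-fold among themselves. The log2 fold change of -0.82 ± 0.259 did not pass (adjusted p = 0.189 by edgeR), whereas DESeq2 gave an adjusted p = 0.0351 and edgeR without KO-labelled library 1 an adjusted p = 0.00163 at a log2 fold change of -1.12. Without KO-labelled library 2, the lowest, it was -0.58.

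Jam3 encodes JAM-C, the partner of JAM-B on opposing cells. It stood at 14.8, 9.52 and 11.6 CPM in the KO-labelled and 9.61 and 12.4 CPM in the WT libraries, and the groups overlapped (log2 fold change 0.12 ± 0.236, adjusted p = 0.884 by edgeR). The sign turned without KO-labelled library 1 (-0.06) or WT library 1 (-0.04). F11r, the gene of JAM-A, a receptor of tight junctions that binds the integrin LFA-1, stood at 70.2, 52.4 and 57.7 CPM in the KO-labelled and 71.2 and 72.5 CPM in the WT libraries. KO-labelled library 1 lay just below the WT libraries and the groups did not overlap, and the log2 fold change of -0.26 ± 0.125 did not pass (adjusted p = 0.392), but did without that library (-0.38, adjusted p = 0.0359 by edgeR).

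Esam, the endothelial cell-selective adhesion molecule of the same immunoglobulin group, stood at 91.2, 55.7 and 66.2 CPM in the KO-labelled and 75.6 and 84.7 CPM in the WT libraries. KO-labelled library 1 was the highest of all 5 and libraries 2 and 3 the lowest, so that the groups overlapped (log2 fold change -0.18 ± 0.174, adjusted p = 0.73 by edgeR). Without KO-labelled library 1 the difference passed, at -0.40 (adjusted p = 0.0396 by edgeR), and without KO-labelled library 2 it was -0.03 (adjusted p = 0.963).

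Tie1, an endothelial receptor tyrosine kinase that modulates angiopoietin signalling, stood at 139.5, 123 and 148 CPM in the KO-labelled and 146 and 161 CPM in the WT libraries. The groups overlapped, with a log2 fold change of -0.17 ± 0.099 (adjusted p = 0.505 by edgeR). Cdh5, the gene of VE-cadherin, was barely expressed, at 12, 29 and 28 counts in the KO-labelled and 23 and 62 counts in the WT libraries. These are 0.332, 0.742 and 0.709 CPM against 0.767 and 1.59 CPM, and the log2 fold change of -0.98 ± 0.862 is too imprecise at this depth to tell a difference (adjusted p = 0.684).

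**Figure D2:**
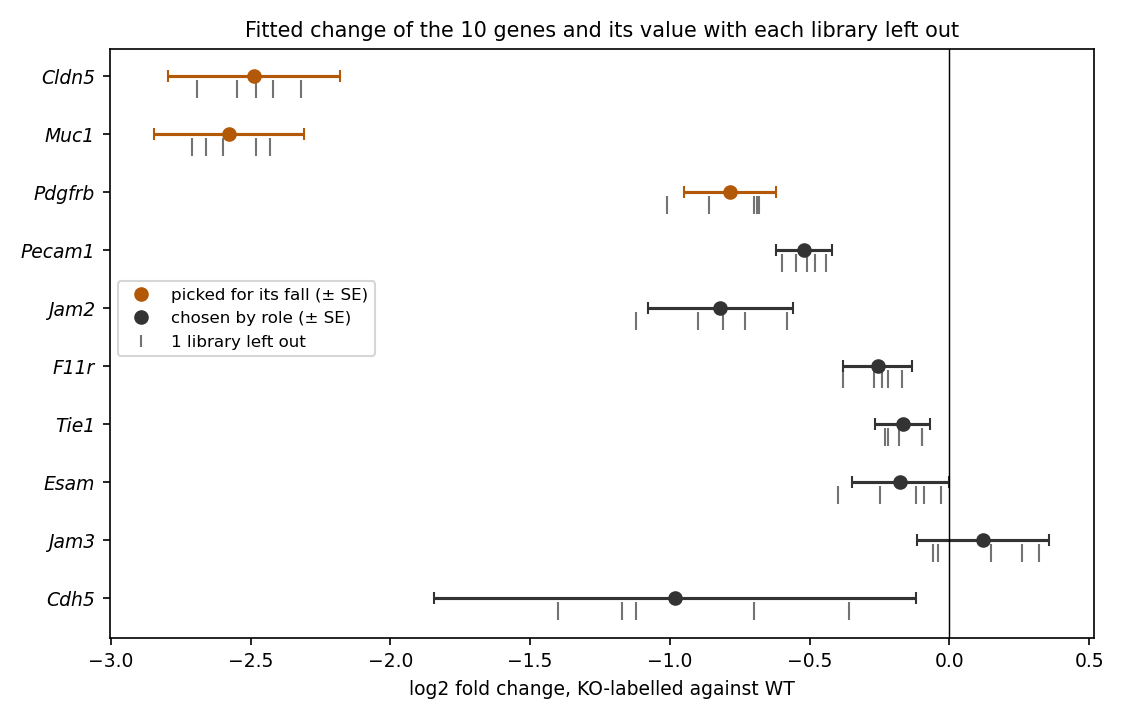
Fitted log2 fold change, KO-labelled against WT (horizontal axis), of the 10 genes, with bars of 1 SE (orange for the genes picked for their low values, black for those chosen for their role) and grey ticks for the value with each of the 5 libraries left out in turn. Cldn5 and Muc1 lie beyond -2.3 with every library left out, and the ticks of Jam3 lie on both sides of 0.

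Levels of different genes were compared as CPM per kilobase of transcript (RPKM), since longer transcripts yield more reads. In the WT libraries the order was Pecam1 (57.4 to 60.3 RPKM), Esam (40.5 to 45.4), Tie1 (35.7 to 39.3), F11r (28.3 to 28.8), Pdgfrb (19.5 to 21.8), Jam2 (9.34 to 10.5), Cldn5 (7.12 to 7.73), Muc1 (5.87 to 6.71), Jam3 (4.95 to 6.36) and Cdh5 (0.192 to 0.397). Neighbours in that order did not overlap except Muc1 and Jam3. In the KO-labelled libraries the ranges of Pecam1 (36.6 to 45.5 RPKM) and Esam (29.9 to 48.9 RPKM) overlapped, as did those of Esam and Tie1 (30.1 to 36.1 RPKM) and those of Jam2 (3.56 to 7.76 RPKM) and Jam3 (4.90 to 7.61 RPKM). Cldn5 (1.0 to 1.66 RPKM) and Muc1 (0.833 to 1.24 RPKM) there lay below Jam2 and Jam3. VE-cadherin transcript was thus the lowest of the set in both groups, while PECAM-1, ESAM and TIE1 transcripts were the highest.

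Within the KO-labelled group the members did not vary together. Jam2, Esam and Jam3 were 2.18-fold, 1.64-fold and 1.55-fold higher in library 1 than in library 2, that is, 3 of 10 above 1.5-fold, against 10.6% of all tested genes. Cdh5, Pdgfrb and Pecam1 went the other way, at ratios of 0.448, 0.657 and 0.805. Markers of the cell types within the LSK fraction separated the same pair of libraries. All 12 stem cell markers, among them Procr, Slamf1 and Fgd5, were higher in library 1 than in library 2 (ratios 1.01 to 1.96). All 8 multipotent progenitor markers, among them Flt3, Satb1 and Dntt, were lower (0.569 to 0.968). Above 1.5-fold were 5 of the 12 and 0 of the 8, against 10.6% of all tested genes. Other lists differed too. Megakaryocyte and platelet (857 against 637 CPM), erythroid (424 against 332) and B cell sums (563 against 472) were higher in library 1. Sums of neutrophil and monocyte markers (2850 against 3000) and of T and NK cell markers (148 against 167) were lower. These ratios and sums compare single libraries and have no replicate check. The part of cell composition in the values of Jam2, Esam and Jam3 was not tested.

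Between the groups the summed stem cell markers overlapped. Over the 12 markers they stood at 1690 to 2000 CPM in the KO-labelled and 1630 and 1820 CPM in the WT libraries. By edgeR 0 of them passed, 1 was lower and 1 higher at an unadjusted p under 0.05, and 0 passed by DESeq2. The 8 multipotent progenitor markers summed to 2580 to 3530 against 2940 and 3150 CPM, and 1, Cd52, rose. In such bulk samples fewer cells of a type and less RNA per cell cannot be told apart.

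**Figure D3:**
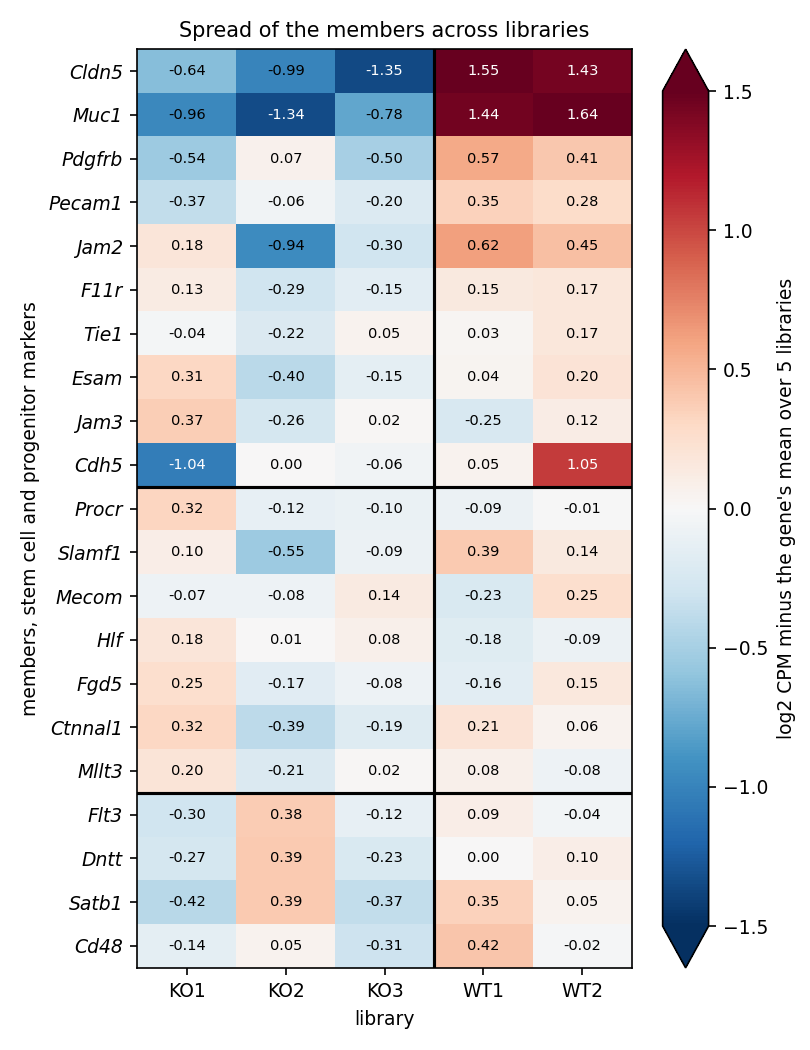
Difference of log2 CPM from the gene's own mean over the 5 libraries (colour and printed value; colours end at 1.5 in either direction) for the 10 genes (top), 7 stem cell markers (middle) and 4 multipotent progenitor markers (bottom) in KO-labelled libraries (KO1 to KO3) and WT libraries (WT1, WT2). Jam2, Esam, Jam3 and F11r are highest among the KO-labelled libraries in library 1 and lowest in library 2, while Flt3, Dntt and Satb1 are highest in library 2.

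Endothelial markers were uneven in level. Of 12 endothelial markers, 5 stayed under 1 CPM in every library. Gpihbp1 had 0 counts throughout, and the others were Lyve1, Ptprb, Stab2 and Nos3. Kdr stood at 9.85 to 18.6 CPM in the KO-labelled and 9.67 and 9.80 CPM in the WT libraries, without overlap (adjusted p = 0.502 by edgeR). Plvap stood at 2.25 to 3.47 CPM over both groups, which overlapped. Emcn, the endomucin gene, stood at 37.1 to 53.0 CPM in the KO-labelled and 33.9 and 49.7 CPM in the WT libraries. Of the endothelial identity list, Eng (262 to 317 CPM), Egfl7 (78.1 to 102 CPM) and Robo4, named here after their values were seen, were present in every library. Robo4 was lower without overlap, at 37.9 to 48.6 CPM in the KO-labelled and 50.2 and 56.2 CPM in the WT libraries (adjusted p = 0.297 by edgeR). The summed level of the 12 markers was 236 to 421 CPM in the KO-labelled and 385 and 481 CPM in the WT libraries, and it overlapped between the groups. It was mostly Vwf (181 to 337 against 332 and 412 CPM), which stem cells and megakaryocytes also express. By edgeR 0 of the 10 tested markers passed, 0 at an unadjusted p under 0.05 and 0 by DESeq2.

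Most stromal and pericyte markers, relevant to Pdgfrb, were near the floor. Of 12, 10 stayed under 1 CPM in every library, and Rgs5 and Lum had 0 counts throughout. Their sum was 15.2 to 24.6 CPM in the KO-labelled and 21.8 and 25.2 CPM in the WT libraries, nearly all of it Col1a2 (13.5 to 23.1 against 20.04 and 22.03 CPM). Among epithelial markers, relevant to Muc1, Krt5, Krt19 and Esrp1 had 0 counts, and the sum of 11 markers (87.9 to 126 against 115 and 119 CPM, mostly Krt18) overlapped between the groups. By edgeR 0 of 4 tested stromal and 0 of 6 tested epithelial markers passed, and 0 of either list by DESeq2. At an unadjusted p under 0.05, 0 stromal markers were lower or higher, and 1 epithelial marker was lower and 2 higher.

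Among markers of maturing blood cells, some lists differed between the groups. Erythroid markers summed to 332 to 424 CPM in the KO-labelled and 238 and 239 CPM in the WT libraries, with 4 of 10 higher and 0 lower. Of all tested genes, 0.79% were called higher and 1.18% lower. At an unadjusted p under 0.05, 7 erythroid markers were higher and 0 lower, and DESeq2 called 5 higher. Neutrophil and monocyte markers summed to 2850 to 3530 against 3960 and 4350 CPM, with 2 of 11 lower and 0 higher by edgeR and 7 lower by DESeq2. All 11 had a log2 fold change below 0, and at an unadjusted p under 0.05 9 were lower and 0 higher. For 10 of these 11 the libraries did not overlap, the KO-labelled ones being lower, against 16.3% of all tested genes. Megakaryocyte and platelet markers, several of which share cells with Pecam1 and Esam, summed to 637 to 857 against 781 and 930 CPM, which overlapped, with 2 of 11 lower and 0 higher. At an unadjusted p under 0.05, 3 of them were lower and 2 higher, and their median log2 fold change was -0.03. B cell markers summed to 472 to 629 against 237 and 261 CPM, nearly all of it Cd74, 1 of 6 tested being higher. T and NK cell markers overlapped (135 to 167 against 142 and 144 CPM). Whether these marker levels have a part in the difference of Pecam1, or in those of Cldn5, Muc1 and Pdgfrb, was not tested.

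The other genes of junctions and adhesion were followed in 8 lists written by role, which held 156 tested genes besides the members. Of these, 6 fell (3.85%, against 1.18% of all tested genes) and 0 rose, and the median log2 fold change was -0.04 beside 0.001 over all tested genes. At an unadjusted p under 0.05, 21 were lower and 8 higher, and DESeq2 called 8 lower and 0 higher. The libraries did not overlap for 38 genes that were lower and 22 that were higher, or 24.4% and 14.1%, against 16.3% and 16.5% of all tested genes. Because the lists were written with earlier results of these data known, these shares describe the genes and are not independent support.

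Of the tight junction list, 1 of 25 tested genes fell and 0 rose, with a median log2 fold change of -0.18. It was Tjp1, the gene of ZO-1, the scaffold that anchors claudins and JAM proteins to the cytoskeleton, at 25.1, 19.0 and 17.7 CPM in the KO-labelled and 54.6 and 39.5 CPM in the WT libraries. All KO-labelled libraries lay well below both WT libraries, and the gene fell 2.28-fold (log2 fold change -1.19 ± 0.179, adjusted p = 0.00443 by edgeR). The polarity scaffold Patj stood at 55.4 ± 2.96 (SD, n = 3) against 56.1 ± 2.76 CPM (SD, n = 2). Among the other claudins, Cldn6, Cldn8, Cldn11, Cldn16 and Cldn18 had 0 counts in every library, and Cldn12, a ubiquitous claudin named here after its values were seen, stood at 26.5 to 29.1 against 35.4 and 38.7 CPM (adjusted p = 0.167).

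Binding partners of the JAM proteins and PECAM-1 held the same single call, Tjp1, among 20 tested genes (median -0.11; 0 rose). The integrin genes Itga4 and Itgb1, whose products pair to bind JAM-B, had log2 fold changes of -0.20 ± 0.134 and -0.11 ± 0.0889 that did not pass. In the adherens junction list 0 of 21 tested genes passed by edgeR and 0 by DESeq2, with 2 lower and 2 higher at an unadjusted p under 0.05. Its most abundant members, the beta-catenin gene Ctnnb1 and the actin crosslinker Actn4, had log2 fold changes of 0.08 ± 0.0728 and 0.01 ± 0.091.

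In the endothelial identity list 1 of 23 tested genes fell (4.35%, against 1.18% of all tested genes) and 0 rose. The median log2 fold change was 0.03, with 10 genes below and 13 above 0. The libraries did not overlap for 2 genes that were lower and 5 that were higher, or 8.7% and 21.7%. Over all tested genes these shares were 16.3% and 16.5%. Adgrl4 (also called Eltd1), an adhesion receptor of endothelium, stood at 798, 837 and 842 CPM in the KO-labelled and 1252 and 1119 CPM in the WT libraries. The 3 KO-labelled libraries lay close together and below both WT libraries, a 1.44-fold fall (log2 fold change -0.52 ± 0.0767, adjusted p = 0.00418 by edgeR). Cd93, a lectin-like receptor shared by endothelium and progenitors, stood at 573 ± 48.9 (SD, n = 3) against 549 ± 23.7 CPM (SD, n = 2), with a log2 fold change of 0.06 ± 0.0869.

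The list of other adhesion molecules held 4 lower and 0 higher genes among 30 tested, or 13.3% against 1.18% of all tested genes called lower. As a whole the list was evenly split, with 15 log2 fold changes below and 15 above 0 and a median of -0.007. At an unadjusted p under 0.05, 5 of its genes were lower and 5 higher. Itga6, the integrin alpha-6 chain that binds laminin, stood at 291, 260.3 and 302 CPM against 438 and 424 CPM, which left a wide gap between the groups (1.52-fold lower, log2 fold change -0.60 ± 0.0844, adjusted p = 0.00348 by edgeR). Itga2b, Alcam and Selp, the P-selectin gene, had log2 fold changes of -0.65 ± 0.104, -0.63 ± 0.106 and -1.01 ± 0.171 and fell as well. All 6 companion calls were lost when either WT library was left out, with adjusted p = 0.248 and 0.0721 for Tjp1 and 0.226 and 0.0774 for Adgrl4 without WT libraries 1 and 2. Alcam also lost its call without KO-labelled library 3 (adjusted p = 0.0535) and Selp without KO-labelled library 1 (0.121) or with no count filter (0.113) in edgeR's test.

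**Figure D4:**
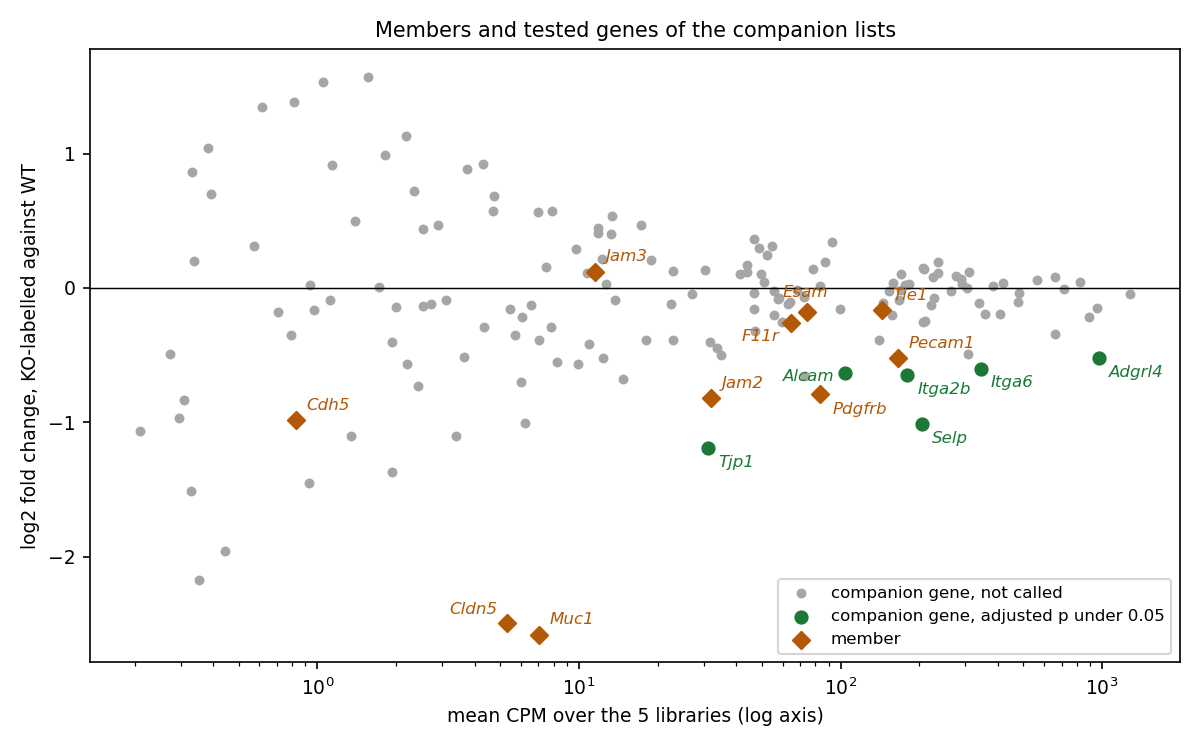
Log2 fold change, KO-labelled against WT (vertical axis), against the mean CPM over 5 libraries (horizontal, log axis) for the 10 members (orange) and the tested genes of the 8 companion lists (grey; green where the adjusted p was under 0.05). The 6 green genes all lie below 0, between -1.19 and -0.52. Cldn5 and Muc1, which were picked for their fall in these data, lie lowest of all genes shown.

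In the remaining lists no gene passed by edgeR. Of 10 tested genes of Tie and PDGF signalling, 0 passed, 0 had an unadjusted p under 0.05 and 0 passed by DESeq2. Angpt1, the ligand of the TIE2 receptor, stood at 716 ± 68.0 (SD, n = 3) against 720 ± 4.78 CPM (SD, n = 2), and Tek, which encodes TIE2, at 57.0 ± 11.4 against 59.9 ± 2.94 CPM. Pdgfra, the paralogue of Pdgfrb, stayed under 1 CPM in every library. Of 13 tested mucin and sialomucin genes 0 passed by edgeR, 2 were lower at an unadjusted p under 0.05, and 1 passed by DESeq2. That gene was Muc13, named here after its values were seen, at 556 to 631 against 726 and 791 CPM (edgeR adjusted p = 0.0531). The stem cell sialomucins Cd34 and Spn had log2 fold changes of -0.04 ± 0.0871 and -0.15 ± 0.0711.

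Of 25 tested transcription factors of endothelium and stem cells, 0 passed by edgeR and 0 by DESeq2, and 4 were lower and 1 higher at an unadjusted p under 0.05. Lmo2, an adaptor of the complex that specifies blood and endothelium, stood at 832 ± 63.7 (SD, n = 3) against 805 ± 19.8 CPM (SD, n = 2), and the ETS factor Etv6 at 837 ± 33.5 against 971 ± 10.5 CPM (adjusted p = 0.195).

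The tested genes whose centred log2 CPM over the 5 libraries lay nearest to that of Cldn5 were Erc2, Spata9 and Ihh, with root mean square differences of 0.184, 0.214 and 0.234. For Muc1 they were Ihh, Mybpc2 and Ephx4 (0.219, 0.226 and 0.231). All 5 were weakly expressed, none exceeding 1.37 CPM in any library, and Ihh, Mybpc2 and Ephx4 were at 0 in the 3 KO-labelled libraries. Those 3 genes stood at 0.256 to 0.384 CPM in the WT libraries and passed the count filter through the WT libraries alone. The lower level of all 5 in the KO-labelled libraries follows from the choice by nearest profile to a gene picked for its fall. For Pdgfrb the nearest genes were Gm10516, Ptk7 and Mirt1 (0.0336, 0.0712 and 0.0728). Ptk7, a receptor of planar cell polarity signalling that lacks kinase activity, stood at 20.0, 30.7 and 22.4 CPM in the KO-labelled and at 40.4 and 39.96 CPM in the WT libraries. Its library 2 was the highest of the KO-labelled group, as for Pdgfrb, which follows from the choice by nearest profile. For genes at 0 the log2 values depend on the prior count of 2.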

How the data were processed

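The deposited table held raw read counts per RefSeq transcript (33862 rows, 5 libraries) from LSK cells after a stranded mRNA preparation, per the labels' protocols. The submitters' processing notes name STAR, Subread 1.4.5-p1, featureCounts and the build mm9 (NCBIM37). Not given in the sources used here were settings, strand use and the treatment of shared reads. Names came from RefSeq for 33485 rows and GENCODE for 188, and 189 rows (0.362% to 0.459% of counts) kept their identifier. The row with the most counts was kept per gene. Groups came from the titles.

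After filterByExpr and TMM scaling, genes were tested two-sided by edgeR 4.0.16 (R 4.3.3, robust quasi-likelihood, Benjamini-Hochberg adjustment over 14565 genes, threshold 0.05); the test was checked on simulated counts. Log2 CPM used a prior count of 2. RPKM used GENCODE transcript lengths on GRCm38. Alternatives were RLE scaling, DESeq2 1.42.0, no and a stricter count filter, summed transcripts, the replicate number as a block and leaving out single libraries. Members and lists were chosen with earlier results of these data known. The naming rule took all members and, per list, up to 4 called genes with the smallest p or, where under 2 were called, the 2 most abundant; markers and genes said to be so were named otherwise, and for the 3 picked genes the 3 nearest profiles. The rule also named the targeted gene and 1 companion gene, which are not reported here.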

Additional observations from a re-analysis of the deposited data

How the results depend on the processing

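With each library left out in turn, the number of genes called ranged from 6 to 675, that of the 7 members chosen for their role from 0 to 4 and that of companion genes from 0 to 10. The lowest values came without WT library 1 (6 genes in all, 0 members, 0 companion genes) or WT library 2 (18, 0 and 0), where the lone WT sample was assumed to vary like the others, and the highest without KO-labelled library 1 (675, 4 and 10). Without KO-labelled library 3 there were 135 genes and 0 members. At an unadjusted p under 0.05, 2, 1 and 2 members passed edgeR's test without KO-labelled library 3, WT library 1 and WT library 2, and 18 and 21 companion genes passed without the WT libraries. Log2 fold changes with 1 library left out ranged from -0.40 to -0.03 for Esam, from -0.60 to -0.44 for Pecam1, from -1.12 to -0.58 for Jam2, from -0.06 to 0.32 for Jam3, from -0.38 to -0.17 for F11r, from -0.23 to -0.10 for Tie1 and from -1.40 to -0.36 for Cdh5. DESeq2 called 569 genes and 2 members (Pecam1, and Jam2 at -0.82, adjusted p = 0.0351), and no count filter gave 454 genes. The replicate block gave 160 genes and 0 members, Pecam1 standing at -0.53 (adjusted p = 0.054), with 2 members at an unadjusted p under 0.05. The deviations of same-numbered libraries from their group means correlated at 0.043 and 0.017. With only 2 WT libraries, whose deviations mirror each other, these values cannot decide whether the numbers pair the libraries. With RLE scaling, the stricter filter and summed transcripts, 285, 287 and 219 genes were called, each with Pecam1 among the members. In the 6 alternatives that kept all libraries, Cldn5, Muc1 and Pdgfrb moved by less than the spread between replicates. Cdh5, at 12 to 62 counts, is limited by depth.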
